A study of Mus musculus with 14 samples.

Results

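The spread of gene expression between embryos of one kind was described in 14 mouse blastocyst samples, which is every sample of the series, over the 10320 autosomal array probes with a signal of at least 8 on the log2 scale on all 14 arrays. These are 32.7% of the 31549 autosomal probes and stand for 7776 of 18769 named autosomal genes. A gene with several such probes is given by its brightest. A further 306 X-linked probes and 846 probes with no gene in the annotation reached this signal and were left out, and the means of the groups were not compared. Because a probe had to pass on every array, genes that were dim in even 1 embryo are not among the members.

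The samples were 4 clones made from cumulus cells by cell fusion (fusion clones), 4 made from cumulus cells by injection (injection clones), and 3 male and 3 female embryos from in vitro fertilization (IVF), all at E4.0 after culture in KSOM medium. Cumulus cells surround the ovulated oocyte, so these clones are female by origin. By the methods of the study, the donor cells of clones carried a heterozygous knockout of Xist, the RNA that silences 1 X chromosome in females, on a BDF1 background (C57BL/6N by DBA/2), while recipient oocytes came from BDF1 females and IVF embryos were BDF1. The labels of these blastocysts give neither strain nor knockout. The extraction protocol speaks of single embryos but of dissected regions, so that 1 blastocyst per array is a reading of it, and the labels do not say whether embryos of a group came from 1 session. RNA was amplified in 2 rounds before labeling, and each sample has 1 array. The spread between arrays therefore holds amplification and hybridization as well as the embryos. All 4 groups lay on a slide and in a scan of their own. Both clone groups were read with one scanner and software version and both IVF groups with another, so a difference in spread between clones and IVF embryos cannot be told apart from these.

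A blastocyst at this stage holds an outer trophectoderm, which will form the placenta, and an inner cell mass in which epiblast and primitive endoderm are separating. Embryos of one age can differ in cell number, in the progress of this separation and in their response to culture, and a clone also depends on how its donor nucleus was reprogrammed. The markers of these layers were read first. Of the 7 epiblast markers, 6 were on the array, and all 6 were well above background on 14 of 14 arrays. The same was true of 7 of 7 trophectoderm markers and of 7 of 10 primitive endoderm markers, whereas of 10 cumulus cell markers only *Foxl2* was, with signals between 5.29 and 7.04. Spots that the software called well above background made up 57.4% to 62.2% in fusion clones, 59.8% to 65.2% in injection clones and 58.5% to 61.3% in IVF embryos.

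The median probe differed little between embryos of a group. The median standard deviation (SD) per probe, in log2 units, was 0.26 in fusion clones, 0.31 in injection clones, 0.38 in male IVF embryos and 0.34 in female IVF embryos. Pooled within groups it was 0.31 in clones and 0.40 in IVF embryos, that is, a factor of 1.24 and of 1.32 in signal. For comparison, spots of one probe on one array differed by a median SD of 0.07, over 19 probes printed 10 times and with a signal of at least 8 at every spot. Of the 7776 genes, 3472 (44.7%) varied by less than 2-fold between the lowest and the highest embryo in each of the 4 groups, and 7144 (91.9%) by less than 4-fold. A range of 4-fold or more was seen for 197 genes among fusion clones, 255 among injection clones, 159 among male and 228 among female IVF embryos. Since groups of 3 span less than groups of 4, these counts are not comparable between clones and IVF embryos.

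**Figure D1:**
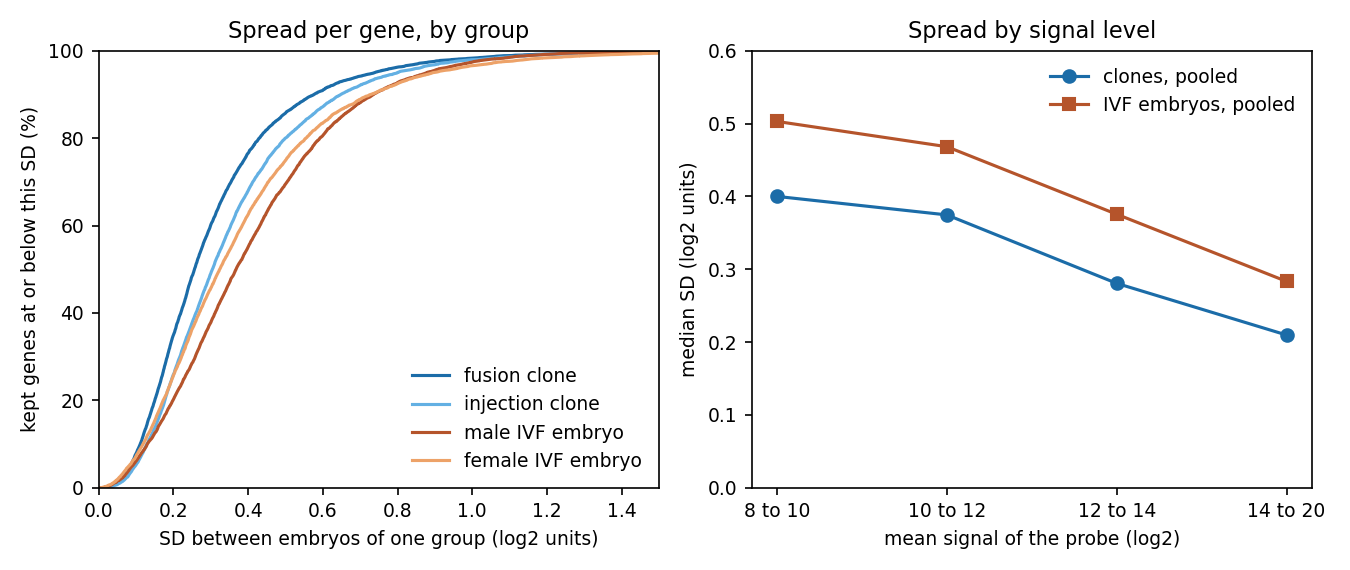
Left, percentage of the 7776 kept genes (y axis) with an SD between the embryos of one group at or below the value on the x axis (log2 units), 1 line per group. Right, median SD of the kept probes in 4 classes of mean signal, pooled within the clone groups (circles) and within the IVF groups (squares). The lines lie close together at small SDs, and at the median those of the IVF groups are to the right of those of the clones (0.34 and 0.38 against 0.26 and 0.31). The median SD is lower in brighter probes, from 0.40 to 0.21 in clones and from 0.50 to 0.28 in IVF embryos.

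The spread depended on brightness. In clones, the median SD was 0.40 among 1241 probes with a mean signal of 8 to 10, 0.37 at 10 to 12, 0.28 at 12 to 14 and 0.21 above 14, and in IVF embryos it was 0.50, 0.47, 0.38 and 0.28. Probes whose lowest array lay between 8 and 8.1 had a median SD of 0.53 in clones and 0.56 in IVF embryos, and those just outside the limit, between 7.9 and 8, had 0.49 and 0.62.

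To compare groups with the array as the unit, each array was given 1 value, the median over the kept probes of its absolute deviation from the mean of its group, scaled for group size and called its distance. Distances were 0.201, 0.175, 0.191 and 0.229 for fusion clones 1 to 4, and 0.253, 0.244, 0.207 and 0.246 for injection clones 1 to 4. They were 0.373, 0.212 and 0.353 for male IVF embryos 1 to 3 and 0.299, 0.253 and 0.275 for female IVF embryos 1 to 3. The clones had smaller distances (0.218 ± 0.0288, mean ± SD, n = 8) than the IVF embryos (0.294 ± 0.0608, n = 6), with p = 0.00699 in a two-sided exact permutation test and p = 0.0210 after Benjamini-Hochberg adjustment over the 3 tests made. The test treats the distances as independent, although those of a group share an estimated mean and a slide. The 2 sets overlapped, since male IVF embryo 2 lay within the range of the clones. The adjusted p was 0.0577 without injection clone 3, 0.0699 without female IVF embryo 1 and 0.0530 with scaling to the 75th percentile. With the first component described below removed, the difference was -0.00524 (exact permutation p = 0.809), but that component was fitted to the same deviations and has IVF embryos at its ends, so that its removal lowers their distances by construction. Fusion clones (0.199 ± 0.0225, n = 4) lay below injection clones (0.237 ± 0.0209, n = 4) without passing the test (exact permutation p = 0.0571, adjusted p = 0.0857), and male (0.312 ± 0.0877, n = 3) and female IVF embryos (0.276 ± 0.0233, n = 3) gave p = 0.5, where 3 against 3 cannot go below 0.1. The last difference changed sign, to -0.0120, without male IVF embryo 1.

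**Figure D2:**
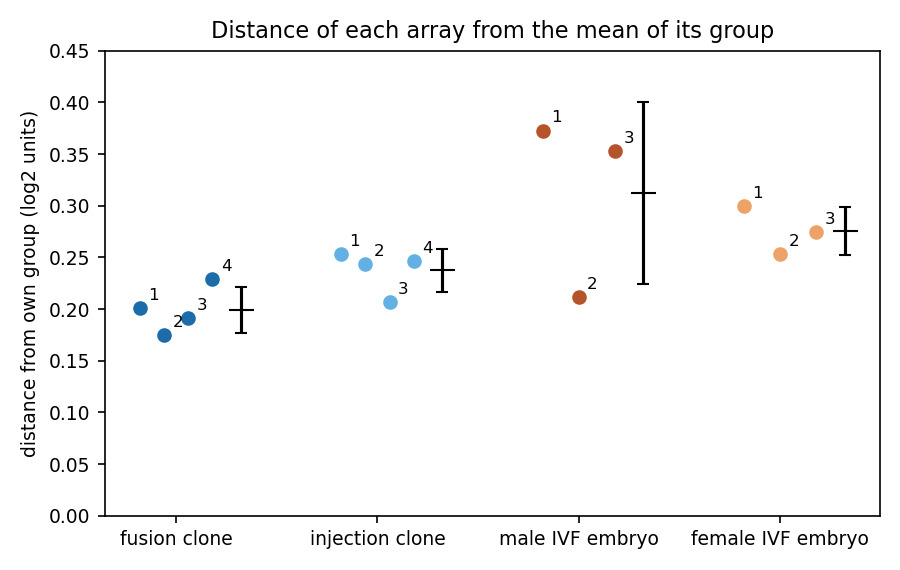
Distance of each array from the mean of its group (y axis, log2 units), by group (x axis). Numbered points are arrays with their replicate numbers, and the bar beside them gives the mean and SD of the group. The 8 clones lie between 0.175 and 0.253 and the 6 IVF embryos between 0.212 and 0.373, with male IVF embryos 1 and 3 highest.

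The first principal component of the within-group deviations held 19.4% of their variance, and the next components held 15.2% and 12.7%. On the first, male IVF embryo 1 (0.64) and male IVF embryo 3 (-0.57) stood at opposite ends, with female IVF embryo 3 (-0.34) next. The 8 clones lay between -0.16 and 0.18. Male IVF embryo 1 carried the most of the squared deviation, male IVF embryo 3 carried 9.30%, and fusion clone 2 the least, 4.57%.

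For single probes, clones and IVF embryos were compared by limma's test on the squared deviations, fitted over the 34283 probes that exceeded background clearly on 1 array or more. With an adjusted p below 0.05, 2 probes (0.00583%) were called with the larger spread in clones and 0% with the larger spread in IVF embryos, and neither of these 2 was a kept probe. The smallest adjusted p among kept probes was 0.306. At an unadjusted p below 0.05, 1244 kept probes (12.1%) had the larger spread in IVF embryos and 118 (1.14%) in clones, against 11.4% and 2.43% of all probes tested. Without male IVF embryo 2 the sum of these kept probes was 2124 in place of 1362. Absolute deviations called 135 kept probes and an F test 417, both at an adjusted p below 0.05. On simulated arrays of these group sizes with known unequal spread the squared deviations made no calls either, so that their lack of calls does not show equal spread, and they gave somewhat more small unadjusted p-values than the nominal share. Absolute deviations gave too many small p-values on simulated normal data at these group sizes, and the F test assumes normal values. The genes below are therefore given with their values and not as calls.

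The genes that varied in clones were partly those that varied in IVF embryos. Of the 516 most variable probes of the clones (5% of all), 134 were among the 516 of the IVF embryos, which is 26.0% of each list. Over the 10320 probes the Spearman correlation of the SDs was 0.36. These values are descriptions across probes that share arrays, and part of the correlation came from brightness, since it was 0.20 after the trend of SD on signal was removed, when 24.4% of the most variable probes were shared. It was 0.26 over probes with a signal of at least 10, and 0.51 over probes well above background on all arrays. Between fusion and injection clones the correlation was 0.39 and 31.8% of the most variable probes were shared. Between male and female IVF embryos these values were 0.18 and 17.4%. Between 1 clone group and 1 IVF group they ran from 0.18 to 0.28 and from 13.2% to 24.4%. The pooled values above rest on more arrays than these. An SD over 3 arrays is less precise than 1 over 4, and the difference between these pairs was not tested.

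**Figure D3:**
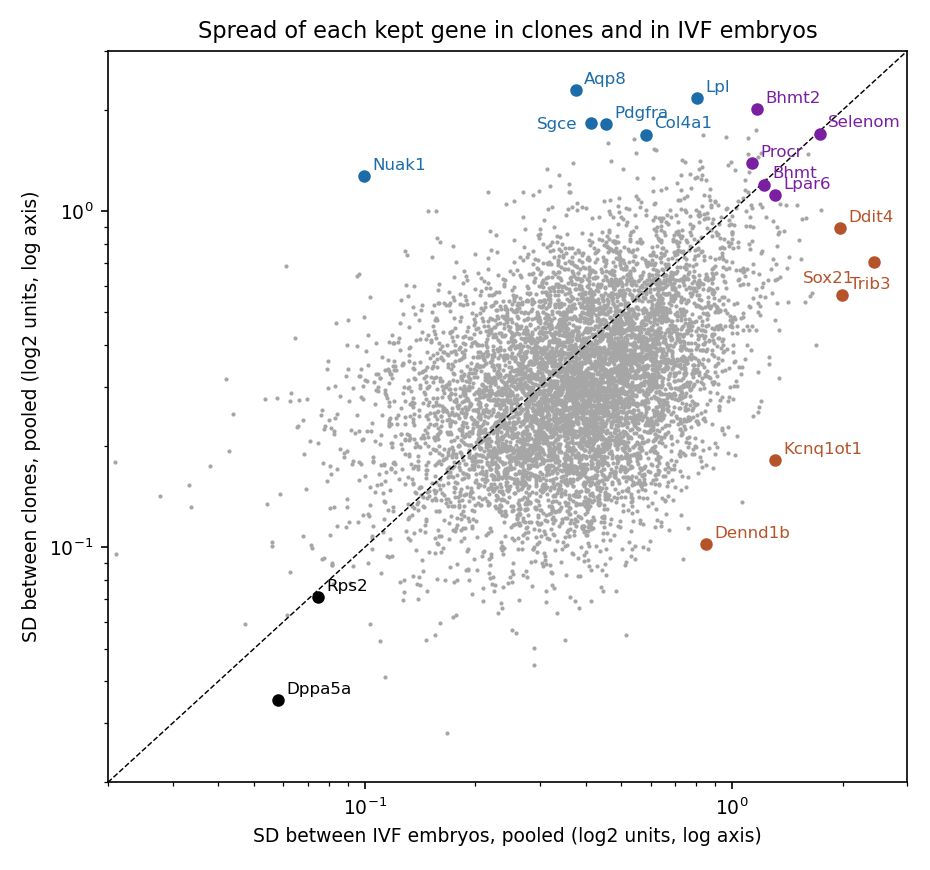
SD of each of the 7776 kept genes between IVF embryos (x axis) and between clones (y axis), in log2 units on log axes, pooled within groups. The dashed line marks equal spread, and named points are genes given in the text. Points above the line vary more in clones, as do *Pdgfra* and *Aqp8*, and points below it vary more in IVF embryos, as do *Trib3* and *Kcnq1ot1*, while *Bhmt* lies near the line with 1.20 in clones and 1.22 in IVF embryos.

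Only *Bhmt* and *Bhmt2* had a range of 4-fold or more in all 4 groups (2 of 7776 genes, 0.0257%). They encode betaine-homocysteine methyltransferase, which remethylates homocysteine (*Bhmt*), and a related enzyme (*Bhmt2*). The 2 genes are neighbors on chromosome 13 with 0 genes of the annotation between them. *Bhmt* read 14.56, 12.62, 13.09 and 15.08 in fusion clones 1 to 4 and 13.94, 16.11, 15.23 and 13.41 in injection clones 1 to 4. In IVF embryos it read 12.47, 13.57 and 11.32 in males and 14.14, 14.76 and 12.23 in females. Fusion clone 4, injection clone 2, male embryo 2 and female embryo 2 were the highest of their groups, and the range within a group was 4.74-fold to 6.52-fold.

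*Bhmt2* read 11.61, 9.56, 9.08 and 14.02 in fusion clones, 10.20, 12.65, 10.66 and 8.45 in injection clones, 9.10, 10.73 and 8.44 in male and 10.01, 12.07 and 10.10 in female IVF embryos. The highest embryo of each group was the same as for *Bhmt*, and the range reached 30.7-fold in fusion clones. Each gene had 1 probe on the array, and whether it reads only its own transcript was not tested.

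Among the 10 genes with the largest spread in both clones and IVF embryos were also *Procr*, the endothelial protein C receptor, and *Lpar6*, a receptor for lysophosphatidic acid. *Procr* had an SD of 1.39 in clones and 1.13 in IVF embryos, and read between 11.72 and 15.91 in clones. Fusion clone 1 held its highest value and male IVF embryo 1 its lowest, 8.15. *Lpar6* had SDs of 1.11 and 1.30, with fusion clone 4 at 12.52, male embryo 3 at 12.29 and female embryo 3 at 12.70 as the highest of their groups. A second probe of *Lpar6* gave the same pattern, with a correlation of 0.997 of the deviations over the 14 arrays.

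5 other genes of the 10, *Selenom*, *Klf7*, *Celf3*, *Itpkc* and *Pax2*, shared 1 pattern. They encode a selenoprotein, a Krüppel-like transcription factor, an RNA-binding protein, an inositol trisphosphate kinase and a transcription factor of kidney development. *Celf3*, for example, read 11.66, 8.73, 11.19 and 11.83 in fusion clones, 12.26, 12.25, 9.84 and 9.37 in injection clones, 9.36, 8.26 and 9.24 in male and 12.99, 10.19 and 12.85 in female IVF embryos. Female embryos 1 and 3 were far above female embryo 2, and injection clones 1 and 2 above 3 and 4. A search made after these values were seen, for genes whose deviations correlated with those of *Kif3c* at 0.9 or more over the 14 arrays, found 10 genes on chromosomes 1, 3, 4, 7, 11 and 19, these 5 with *Cadm4*, *Kcnmb2*, *Nuak2*, *Foxd3* and *Ppp2r5b*.

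The signals of these 11 genes lay, for example, between 8.31 and 10.10 in fusion clone 2 and between 11.80 and 13.35 in female embryo 3. Their range was widest in male embryo 2, from 8.26 to 10.90. Of *Selenom*, *Klf7*, *Celf3*, *Itpkc* and *Pax2*, only *Klf7* and *Itpkc* had another probe, and it did not repeat the pattern. A second probe of *Klf7* correlated with the first at -0.31, and a second probe of *Itpkc* at -0.23 with signals of 4.0 to 6.58. Other probes of *Kif3c*, *Cadm4*, *Kcnmb2*, *Nuak2*, *Foxd3* and *Ppp2r5b* were not examined. Whether the 11 probes read only their own transcripts was not tested. *Pigt*, a subunit of the enzyme that attaches GPI anchors and the last of the 10, read 17.41 to 17.71 in fusion clones, but 13.06 to 17.72 in injection clones and 9.51 to 16.13 in IVF embryos, and its second probe stayed between 4.0 and 5.59.

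Across all genes, 2133 had more than 1 kept probe. The deviations of the 2 brightest probes correlated with a median of 0.57 over the 14 arrays, and with 0.69 for the 127 genes whose first probe was in the most variable 10%. In 16.2% of the 2133 genes the correlation was below 0.

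Several genes of the primitive endoderm, the layer that will line the yolk sac, had a larger SD between clones than between IVF embryos, none of them with an adjusted p below 0.05. *Pdgfra*, a receptor that marks this layer, read 12.07, 14.44, 14.41 and 9.79 in fusion clones 1 to 4 and 10.97, 11.51, 13.90 and 12.66 in injection clones 1 to 4. In IVF embryos it read 12.61, 13.09 and 13.79 in males and 13.83, 13.97 and 13.50 in females. Its SD was 1.82 in clones (1.32 without fusion clone 4) and 0.45 in IVF embryos, with fusion clone 4 lowest and a range of 25.0-fold among fusion clones (adjusted p = 0.333 by limma on squared deviations).

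*Col4a1*, a basement membrane collagen made by this layer, read 13.88, 13.80, 13.36 and 9.13 in fusion clones, 10.80, 12.30, 12.26 and 11.94 in injection clones, and 13.28 to 14.71 in the 6 IVF embryos. Its SD was 1.69 in clones and 0.58 in IVF embryos, but 0.57 in clones without fusion clone 4, which stood apart from the other 3 of its group (limma on squared deviations, adjusted p = 0.463). *Sparc*, a matrix protein (SD 1.04 and 0.83), and *Serpinh1*, a collagen chaperone (0.97 and 0.66), spread less.

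Of the 13 primitive endoderm genes kept, 6 were in the most variable 10% of all genes in clones (778 of 7776 by construction) and 1 in IVF embryos, and 9 of 13 had the larger SD in clones, against 34.1% of all genes. The median SD of the list was 0.47 in clones and 0.43 in IVF embryos. Without fusion clone 4 these counts were 4 in the most variable 10% and 7 of 13 (33.4% of all genes), and the clone median fell below that of IVF embryos, at 0.36. In fusion clone 4 the 13 genes lay on average 0.80 below the mean of their group (4 of 13 above it). In fusion clone 2 they lay 0.44 above (11 of 13 above it). Their mean pairwise correlation was 0.07 in clones and 0.27 in IVF embryos, so in clones they moved little together. Other lists moved on the same arrays: in fusion clone 4 the epiblast genes lay 0.35 below (3 of 14 above the group mean) and genes of p53 targets and apoptosis 0.37 above (15 of 17), and in fusion clone 3 the epiblast genes lay 0.33 above (13 of 14) and the p53 list 0.52 below (0 of 17). Their part in the result was not tested. *Gata6* (0.34 and 0.35) and *Dab2* (0.21 and 0.41) did not share the spread.

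The limit on signal left out genes that were dim in some embryos, and 5 of the 10 primitive endoderm markers were not kept. These were *Sox17*, *Lama1*, *Gata4* and *Sox7*, which fell below 8 on some arrays, and *Lamc1*, which had no value on 1 array. *Sox17*, a transcription factor of this layer, read 10.64, 14.47, 15.00 and 4.0 in fusion clones and 7.06, 4.0, 14.81 and 11.43 in injection clones, where 4.0 is the floor. In all 6 IVF embryos it read between 13.20 and 14.28. *Sox7*, a related factor, had the wider range in IVF embryos, with 9.40, 4.0 and 12.21 in males and 12.46, 9.40 and 12.60 in females, against 4.0 to 8.45 in clones. *Lama1*, a laminin chain, read 6.47, 12.17, 11.55 and 8.38 in fusion clones, 7.51, 8.61, 10.68 and 9.74 in injection clones and 11.74 to 13.98 in IVF embryos. Fusion clones 2 and 3 and injection clone 3 were highest for both genes, as they were for *Pdgfra*. With probes well above background on all arrays in place of the limit of 8, the median SD of the list was 0.79 in clones and 0.58 in IVF embryos. In RNA of whole embryos, fewer cells of a type and less RNA per cell cannot be told apart.

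**Figure D4:**
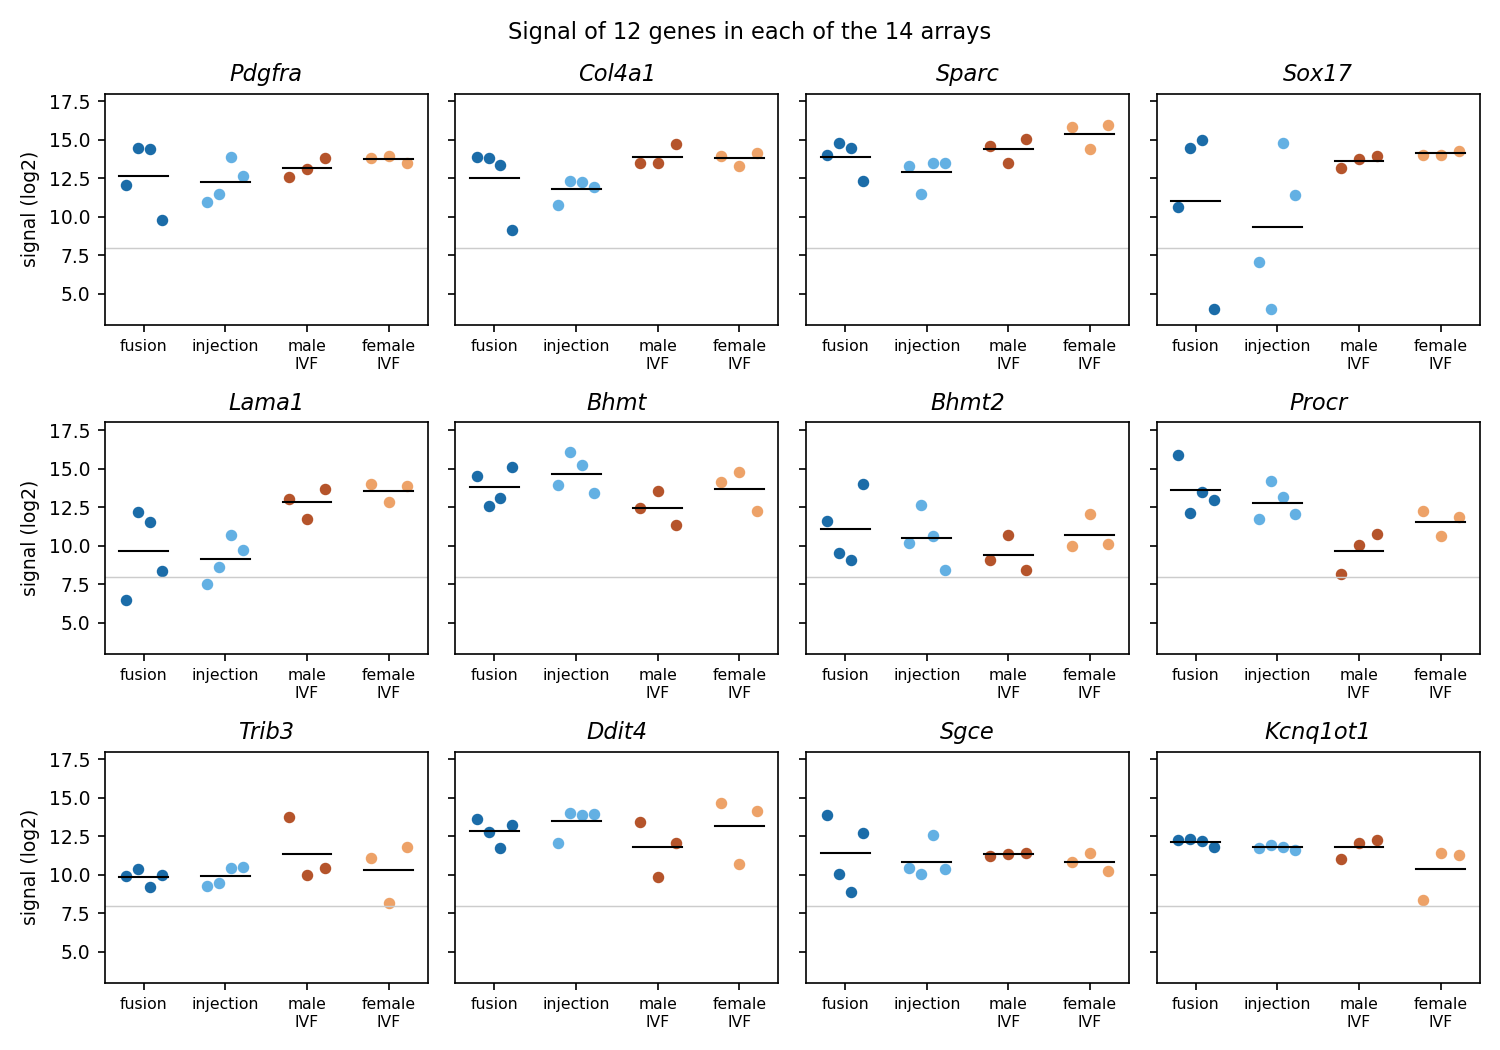
Signal (y axis, log2) of 12 genes in the 14 samples, by group (x axis). Points are arrays in replicate order, black bars are group means, and the gray line marks the signal of 8 that kept genes passed on every array. *Pdgfra*, *Sox17*, *Sgce* and, through fusion clone 4, *Col4a1* are spread out in clones, *Trib3*, *Ddit4* and *Kcnq1ot1* in IVF embryos, and *Bhmt* and *Bhmt2* in each group.

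Genes of other functions also had the larger SD in clones. Those with the largest ratio of the 2 SDs, chosen for it and given as a description, were *Nuak1*, a kinase related to AMPK (1.27 in clones and 0.10 in IVF embryos), *Kyat3*, an aminotransferase (1.0 and 0.15), *Bambi*, a decoy receptor of TGF-β signaling (1.0 and 0.16), *Aqp8*, a water channel (2.29 and 0.38), *Nudt7*, a peroxisomal hydrolase (0.76 and 0.13), and *Retsat*, retinol saturase (0.74 and 0.13). *Aqp8* read 12.39, 14.77, 13.20 and 8.43 in fusion clones and 10.27, 9.34, 13.45 and 11.70 in injection clones. It lay between 13.47 and 15.20 in IVF embryos, and fusion clone 4 was again the lowest. A second probe of *Bambi* was at the floor on all 14 arrays, and 1 of *Nudt7*, with signals of 6.36 to 11.15, had a correlation of 0.24 with the first. *Nuak1* read 11.46, 13.69, 13.85 and 10.42 in fusion clones, and of its other probes, both dim with signals of at most 7.04, 1 followed the first (correlation of 0.82) and 1 did not (-0.25).

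Among imprinted genes, which are read from 1 parental copy, *Sgce* varied most in clones. It read 13.90, 10.03, 8.88 and 12.74 in fusion clones, 10.44, 10.06, 12.55 and 10.35 in injection clones, and 10.23 to 11.43 in IVF embryos. Its SD was 1.83 in clones and 0.41 in IVF embryos, and its second probe followed the first with a correlation of 0.98. *Mest* (1.01 and 0.72), *Cd81* (1.03 and 0.88) and *Inpp5f* (1.01 and 0.32) were also in the wide range, whereas *Igf2r* (0.18 and 0.09), *Trappc9* (0.15 and 0.18) and *Snrpn* (0.17 and 0.18) were steady. The 21 kept imprinted genes had a median SD of 0.35 in clones and 0.36 in IVF embryos, with 6 and 3 in the most variable 10%.

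*Kcnq1ot1*, the noncoding RNA that silences its neighbors on the paternal chromosome, went the other way. It read 11.62 to 12.32 in the 8 clones, 11.01, 12.05 and 12.27 in male and 8.37, 11.45 and 11.27 in female IVF embryos. Its SD was 0.18 in clones and 1.31 in IVF embryos, and the single low value was that of female embryo 1, without which the IVF SD was 0.56. The other genes with the largest ratio toward IVF embryos were *Dennd1b* (0.10 in clones and 0.85 in IVF embryos, or 0.25 without male embryo 1), *Nmnat1*, which makes NAD in the nucleus (0.14 and 1.06), *Magi1*, a junction scaffold (0.19 and 1.02, or 0.58 without female embryo 3), *Ube2v2*, a ubiquitin-conjugating enzyme variant (0.17 and 0.89), and *Rnf141* (0.19 and 0.97, or 0.54 without male embryo 1). For *Nmnat1* a second probe followed the first (0.96), and for *Rnf141* the other 3 probes had correlations of 0.97, 0.69 and 0.02 with it, whereas for *Dennd1b* and *Ube2v2* no other probe did (-0.11 to 0.00 and -0.08 to -0.02).

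Genes that respond to shortage of amino acids or to unfolded protein varied in both kinds of embryo. In the first response the factor *Atf4* raises genes for amino acid supply, and *Trib3* and *Ddit4* are among its targets that restrain growth signaling. *Trib3*, a pseudokinase, read 13.74, 9.96 and 10.43 in male and 11.08, 8.15 and 11.77 in female IVF embryos, but 9.19 to 10.48 in the 8 clones. Its SD was 0.56 in clones and 1.99 in IVF embryos (adjusted p = 0.306 by limma on squared deviations). *Ddit4*, an inhibitor of the mTORC1 kinase, read 13.42, 9.88 and 12.07 in male and 14.63, 10.72 and 14.11 in female IVF embryos, with an SD of 1.96 against 0.89 in clones (adjusted p = 0.309). Male embryo 2 and female embryo 2 were the lowest of their groups for both genes. *Slc7a5*, an amino acid transporter, was lowest in the same 2 embryos, at 10.05 and 9.41, against 11.02 to 12.06 in the other IVF embryos.

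Over the 21 kept genes of the list, male embryo 1 lay on average 0.46 above its group and male embryo 2 lay 0.36 below, and female embryo 2 lay 0.48 below. In clones, *Asns*, asparagine synthetase, was the most variable of the list (SD 1.11 against 0.55 in IVF embryos), with 12.90 in injection clone 1 and 16.16 in fusion clone 2. In all, 6 of 21 genes were in the most variable 10% in clones and 6 in IVF embryos, and 4 of 21 had the larger SD in clones, against 34.1% of all genes. *Atf4* itself had SDs of 0.36 and 0.22, and the chaperone *Hsp90b1* of 0.08 and 0.29.

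The response to amino acid shortage is read through a short element in promoters, and 2 promoters that hold it are shown because their genes, *Asns* and *Herpud1*, varied most among those with a match. The element TGATGNAA was searched for on both strands in the 250 bases before the RefSeq start sites (GRCm38.p6), where an overlap with other motifs was not examined. It was found for 4 of the 19 list genes with a promoter in the table (21.1%), *Aars*, *Asns*, *Gars* and *Herpud1*, and in 1134 of 32851 promoters (3.45%). *Trib3* and *Ddit4* had no match in this window. In the 2 sequences, printed 5′ to 3′ on the strand of the gene, capitals mark the match, which starts 23 bases before the start site of *Asns* (chr6:7693210-7693459, minus strand) and 112 bases before that of *Herpud1* (chr8:94386179-94386428, plus strand).
Asns: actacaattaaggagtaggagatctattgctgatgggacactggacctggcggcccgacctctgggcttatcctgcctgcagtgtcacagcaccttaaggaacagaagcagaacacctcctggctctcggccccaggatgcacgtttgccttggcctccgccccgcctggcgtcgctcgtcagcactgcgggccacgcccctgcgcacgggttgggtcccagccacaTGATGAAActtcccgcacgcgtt
Herpud1: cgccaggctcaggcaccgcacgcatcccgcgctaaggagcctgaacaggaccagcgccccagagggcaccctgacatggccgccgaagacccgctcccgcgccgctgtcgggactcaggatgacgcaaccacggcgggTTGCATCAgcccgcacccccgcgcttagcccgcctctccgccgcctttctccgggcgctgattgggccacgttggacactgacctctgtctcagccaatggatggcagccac
In *Herpud1* the match lies on the opposite strand. *Herpud1*, a component of the degradation of misfolded proteins, had SDs of 0.78 in clones and 0.95 in IVF embryos.

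Histone genes had the largest median spread of the 20 lists with at least 4 kept genes. The replication-dependent histones, made while DNA is copied, had a median SD of 0.83 in clones and 0.67 in IVF embryos, against 0.30 and 0.39 for all kept genes, and 8 and 5 of 13 were in the most variable 10%. Without male IVF embryo 3 the IVF value was 0.44, and over probes with a signal of at least 10 the clone value was 0.44. H4c4 read 11.98, 10.12, 11.23 and 11.04 in fusion clones, 10.93, 10.52, 11.59 and 13.30 in injection clones, 12.18, 10.09 and 10.30 in male and 12.43, 10.31 and 10.81 in female IVF embryos. Injection clone 4, male embryo 1 and female embryo 1 were the highest of their groups. H4c6 and H4c14 followed it with correlations of 0.999 and 0.998, and H4c9 (SDs of 1.20 and 0.36) less closely, with 0.68. Whether the H4 probes read only their own transcripts was not tested, so H4c4, H4c6 and H4c14 were not taken as separate measurements. H2ac1, H2ac10 and H2ac20 likewise followed each other (0.99 for each pair), as did H2bc12 and H2bc14 (0.99), so that the 13 genes are fewer separate measurements. The 3 H2ac genes did not follow H4c4 (-0.33 to -0.36). H1f2, a linker histone, was the most variable of the list (1.69 and 0.83), with 14.20 in fusion clone 1 and 9.02 in fusion clone 4.

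Genes of cell division had, in contrast to most genes, the larger SD in clones. Of 33 genes, 22 had it, against 34.1% of all genes, and the median was 0.34 in clones and 0.29 in IVF embryos. In clones these genes moved partly together, with a mean pairwise correlation of 0.30, against 0.02 in IVF embryos, so the 22 are not separate measurements. They lay on average 0.34 below the group mean in fusion clone 1 (3 of 33 above it) and 0.27 above it in injection clone 4 (29 of 33). *Mcm3* (0.65 and 0.20) and *Mcm6* (0.53 and 0.15), subunits of the replicative helicase, were lowest in injection clone 1, at 13.48 and 15.14, against 14.39 to 15.39 and 15.87 to 16.70 in the other 7 clones. *Kif11*, a mitotic motor, was the most variable (0.67 and 0.30) and *Mcm2* the steadiest (0.19 and 0.19). Immediate early and ERK feedback genes, which respond to growth factors, had medians of 0.65 and 0.48 over 8 genes, with 5 and 1 in the most variable 10%, but the clone median was 0.42 without fusion clone 4. *Dusp1*, a phosphatase of this feedback, led them (0.82 and 1.0).

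**Figure D5:**
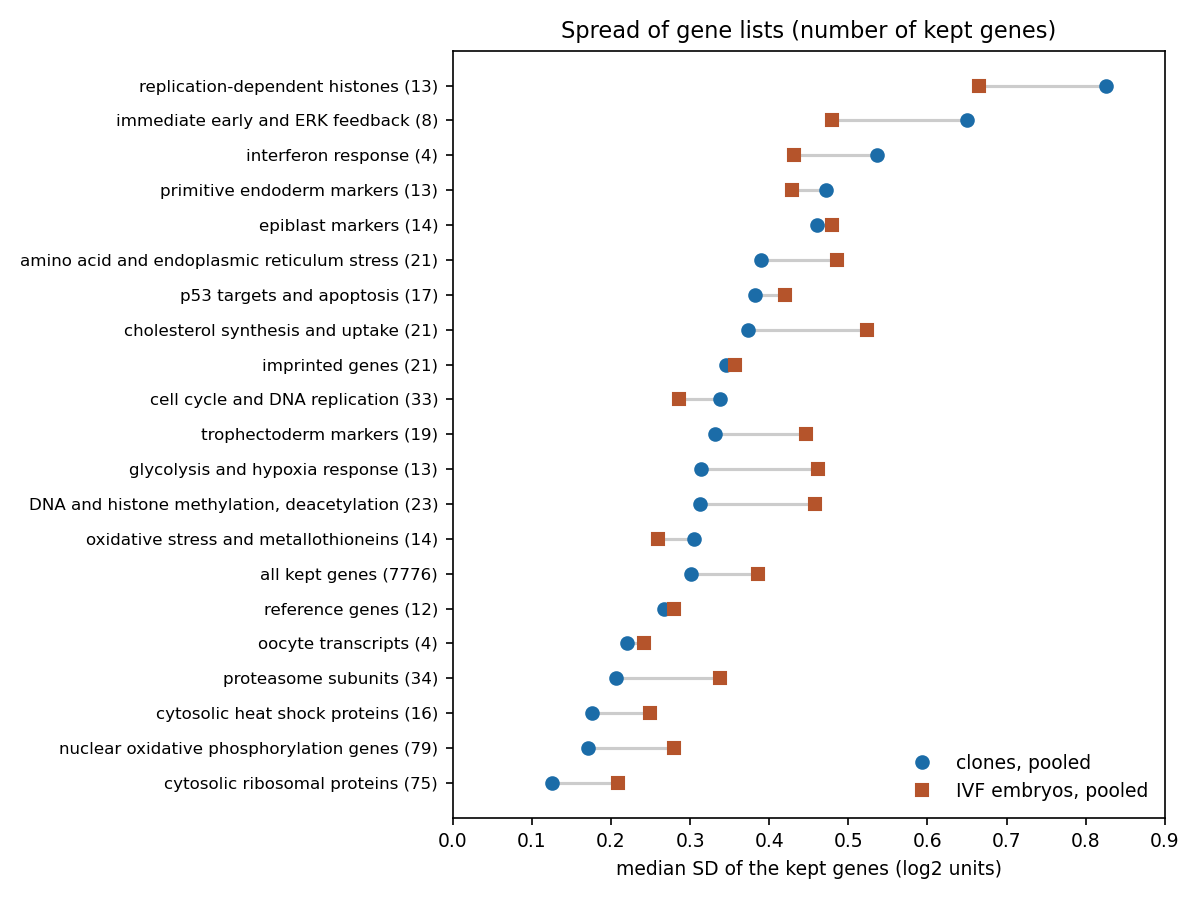
Median SD of the kept genes (x axis, log2 units) of each list with at least 4 of them, with the number of kept genes in brackets, in clones (circles) and in IVF embryos (squares), both pooled within groups. Histones are at the top with 0.83 and 0.67 and cytosolic ribosomal proteins at the bottom with 0.13 and 0.21, and all kept genes have 0.30 and 0.39.

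The other layers varied as well. In clones the epiblast genes moved partly together, with 13 of 14 above the group mean in fusion clone 3, 12 in injection clone 3 and 3 in fusion clone 4, and of 19 trophectoderm genes 2 were above it in injection clone 3. Of 14 epiblast genes the median SD was 0.46 in clones and 0.48 in IVF embryos, from *Tdh*, threonine dehydrogenase, with 1.42 and 0.73, to *Dppa5a* with 0.04 and 0.06. *Nanog*, a core pluripotency factor, had 0.44 and 0.67. Of 19 trophectoderm genes the median was 0.33 and 0.45, and the keratin *Krt19* varied most (1.38 and 0.98), with 12.74 in injection clone 1 and 8.79 in injection clone 4. *Krt7* (1.28 and 0.34) and *Elf5*, a transcription factor of trophoblast stem cells (1.05 and 0.61), spread in clones, whereas *Krt8* (0.20 and 0.12), *Krt18* (0.21 and 0.19), *Cdx2* (0.27 and 0.22) and *Fabp3* (0.14 and 0.06) were among the steady members.

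Of the 20 lists, 14 had the larger median SD in IVF embryos and 6 in clones, and in 10 of the 20 this order turned when some single array was left out. Genes of p53 targets and apoptosis (0.38 and 0.42, 17 genes), cholesterol synthesis and uptake (0.37 and 0.52, 21 genes), glycolysis and hypoxia (0.31 and 0.46, 13 genes) and DNA and histone methylation or deacetylation (0.31 and 0.46, 23 genes) lay around or above the median of all genes. In these lists *Zmat3* (0.69 and 0.59), *Stard4* (0.86 and 0.71), *Ldha* (1.15 and 0.73) and *Dnmt3a* (0.63 and 0.76) varied most. The other probes of *Dnmt3a* did not follow the one given (correlations of -0.19 and -0.18), and those of *Stard4* did in part (0.43 and 0.61). The interferon list (0.54 and 0.43) had 4 kept genes, led by *Psmb9*, a subunit of the immunoproteasome (1.28 and 0.83), which read 10.32 in injection clone 1 and 13.97 in injection clone 2. Genes of oxidative stress (0.31 and 0.26, 14 genes) had none in the most variable 10%, and the 4 kept oocyte transcripts had 0.22 and 0.24. Of genes of the 2-cell stage only 2 were kept, *Ddit4l* (0.99 and 0.81) and *Sp110* (0.70 and 0.32), and of cumulus cell genes only *Gja1* (0.40 and 0.61).

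In clones the lists with the smallest median SD were those of translation, respiration, heat shock and the proteasome. The 75 cytosolic ribosomal protein genes had a median SD of 0.13 in clones and 0.21 in IVF embryos, the 79 nuclear genes of oxidative phosphorylation 0.17 and 0.28, the 16 cytosolic heat shock genes 0.18 and 0.25, and the 34 proteasome genes 0.21 and 0.34. In IVF embryos the proteasome was not among the lowest, with oocyte transcripts, oxidative stress, reference and cell division genes below it. Exceptions were *Rpl39l*, a variant ribosomal protein (0.95 and 0.63), *Atp5l* (0.70 and 0.35) and *Hspb1*, a small heat shock protein (0.61 and 1.1). Of the 12 reference genes, often taken as constant, the median was 0.27 and 0.28. *Rplp0* held to 0.07 and 0.13, but the probe given for *Actb* read 13.31 to 13.47 in male IVF embryos and 10.77, 13.42 and 12.20 in females (SD 0.23 and 0.94), while its second probe stayed between 9.57 and 10.16.

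Ranked by the larger of the 2 SDs, the steadiest genes were *Dppa5a* (0.04 in clones and 0.06 in IVF embryos), *Atp5a1* (0.06 and 0.05), *Ctnna1* (0.06 and 0.06), *Rps2* (0.07 and 0.07) and *Rpl23a* (0.08 and 0.08). All 5 were among the 47 brightest probes, where quantile normalization, which gives all arrays the same set of values, leaves little room to vary. *Dppa5a*, the brightest, read 18.88 on 11 of 14 arrays. With scaling to the 75th percentile instead, its SD was 0.07 in clones and 0.15 in IVF embryos, and those of *Rps2* were 0.12 and 0.20.

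Genes were also grouped by the letters of their symbol before the first digit, which gave 119 families with at least 8 kept genes. These share a name and not always a function. The families ranked partly alike in clones and IVF embryos, with a Spearman correlation of 0.56 over families, and 12 of 119 had the larger median SD in clones. The trend of SD on signal was not removed here, so part of this likeness may come from brightness. In clones the most variable were *Il*, interleukins with their receptors and other genes of that stem (0.50 in clones and 0.56 in IVF embryos), *Dusp*, dual specificity phosphatases (0.49 and 0.43), *Klf*, Krüppel-like factors (0.47 and 0.57), and *Tspan*, tetraspanins (0.46 and 0.30). In IVF embryos they were *Fbxl*, F-box proteins (0.65 in IVF embryos and 0.39 in clones), *Snhg*, host genes of small nucleolar RNAs (0.61 and 0.31), *Lrrc*, leucine-rich repeat proteins (0.58 and 0.33), and *Klf*. *Klf* and *Il* were in the first 6 of both rankings, whereas *Tspan* was the 99th in IVF embryos. *Rps*, *Rpl* and *Ndufa*, of ribosomes and of respiratory complex I, had the smallest median SD of the 119 in clones (0.14, 0.14 and 0.16).

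Within these families the cytokine *Il6* spread in both kinds of embryo (1.48 in clones and 1.1 in IVF embryos), and its signal-transducing receptor *Il6st* mainly in clones (1.49 and 0.55), with 8.09 in fusion clone 4. *Tspan17* varied in IVF embryos (0.40 and 1.69), with 15.23 in female embryo 1 and 11.38 in female embryo 3, and *Tspan3* in clones (0.71 and 0.18), where fusion clone 4 read 11.13 against 13.03 to 13.62 in the other 7. *Klf11* (0.27 and 1.20), *Fbxl18* (0.54 and 0.98) and *Lrrc45* (0.53 and 1.32) varied more in IVF embryos, and *Snhg11* (0.93 and 0.71), whose brightest other probe followed it with 0.92, in both. *Dusp8* (0.65 and 0.66), *Fbxl20* (0.54 and 0.76), *Snhg8* (0.64 and 0.68) and *Lrrc58* (0.58 and 0.79) were the second most variable members of their families. Other probes of *Lrrc58* (correlations of -0.02 to 0.02), *Fbxl18* (-0.29) and *Fbxl20* (0.16) did not follow the one given. Those of *Klf11* (0.48) and *Dusp8* (0.56) and the dimmer ones of *Snhg11* (0.53 and 0.60) did in part, and that of *Tspan3* did (0.92).

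2 further genes were picked after their values were seen because single embryos stood far from the rest. *Lpl*, lipoprotein lipase, read 15.03 in fusion clone 1 and 8.10 to 9.81 in the other 7 clones (SD 2.16, against 0.80 in IVF embryos). *Sox21*, a transcription factor, read 12.03, 9.35 and 8.57 in male and 13.95, 9.04 and 8.75 in female IVF embryos (SD 2.43, against 0.70 in clones), so that it was highest in embryo 1 of both sexes.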

How the data were processed

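Single-color arrays (Cy3) of 14 blastocyst samples were read from the deposited scanner files, which hold spot intensity as the authors' Agilent Feature Extraction software processed it (version 10.5.1 in the submitters' processing notes, 10.5.1.1 in the clone files and 9.5.3.1 in the IVF files). Groups were taken from the labels. The authors' deposited value table, on a log2 scale, served only as an alternative. Control spots and outlier spots were left out. Processed intensity was quantile-normalized, set to a floor of 16, turned to log2 and averaged per probe. Of 41174 gene probes, 32719 (79.5%) were matched to RefSeq genes. Autosomal probes with log2 of at least 8 on all arrays were kept, and 760 probes with a value missing on an array were not. The number of arrays, 3 or 4 in a group, limits the precision of each SD, and 101 to 338 outlier spots per array and 1 saturated spot in all were counted. SDs were pooled within groups with 6 degrees of freedom for clones and 4 for IVF embryos. Array distances were compared by two-sided exact permutation tests, and probes by limma 3.58.1 (R 4.3.3) on squared deviations with Benjamini-Hochberg adjustment, tested on simulated data. The permutation p-values compare mean array distances, and the limma p-values compare squared deviations, both between sets of these samples. The spread that they compare may in part be technical.

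Named were the 10 genes with the largest SD in both sets, 6 on each side of the ratio of SDs, the 5 steadiest, the most and least variable gene of each list, and 2 genes of each of the 4 most variable families by either set. Other list members named were chosen after their values were seen. For 1 list the least variable gene is not reported here. The members and lists were chosen with earlier results of these data known. Alternatives were other normalizations, limits on signal, measures of spread, the replicate number as a block, and leaving out each array. Python 3.11.15, numpy 2.4.6, pandas 2.3.3, scipy 1.17.1 and statsmodels 0.14.6 were used.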

Additional observations from a re-analysis of the deposited data

Results flagged for a closer look

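Genes were looked at again where 1 of the 4 clones of a group stood apart, that is, where its gap to the nearest of the other 3 was, as a ratio to the range of the group, above Dixon's 95% critical value. Of 310 tests in a clone group, nearly all of a gene and the rest of the array distances, 23 (7.42%) passed, all of them for genes. Chance passes about 1 in 20 for genes taken without regard to their spread. These genes were not so taken, as many were named for it or follow each other. The groups of 3 IVF embryos are too small for this.

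In fusion clone 4, genes of several layers were low: *Col4a1* (9.13 against a group median of 13.58, ratio 0.891), *Eomes*, a trophectoderm factor (12.16 against 13.28, 0.872), *Tspan3* (11.13 against 13.04, 0.928) and, by little, *Dppa4* (13.50 against 13.61, 0.873). *Ier2*, an immediate early gene, was high there (group median 12.31, 0.943). In fusion clone 2, 3 genes of the set that followed *Kif3c* were low, namely *Pax2* (8.31 against 11.47, 0.843), *Foxd3* (8.80 against 11.11, 0.836) and *Nuak2* (8.89 against 10.77, 0.845). *Nudt7* (10.49 against 11.05, 0.864) and *Ube2v2* (11.21 against 11.59, 0.844) were also low there, and *Manf*, a stress-induced secreted protein, was high (14.75 against 14.52, 0.894). Fusion clone 1 was low for *Dppa5a* (18.78 against 18.88, 1.0, where the other 3 tie at the top value that quantile normalization gives) and fusion clone 3 high for *Actb* (11.55 against 11.21, 0.944).

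In injection clone 1, *Ddit4* (12.04 against 13.92, 0.942), *Apoe*, a lipid carrier (12.12 against 12.77, 0.908), the pluripotency marker *Zfp42* (15.93 against 16.34, 0.855), *Dnajb1* (15.52 against 15.69, 0.918) and *Atp5a1* (18.11 against 18.19, 0.885) were low. Injection clone 2 was low for *Sparc* (11.49 against 13.39, 0.917), injection clone 3 was high for *Sgce* (12.55 against 10.40, 0.848), and injection clone 4 was low for *Serpinh1* (10.12 against 11.63, 0.932) and high for *Cldn4*, a tight junction protein (11.76 against 10.92, 0.837), and *Rps2* (18.78 against 18.65, 0.899).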

How the results depend on the processing

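Of the values for comparisons and lists, 668 stayed within the limits set under the other settings, 61 moved, 2 changed sign and 2 lost their call, and for single genes 1257 stayed and 47 moved. Values are median SDs in log2 units unless named otherwise, and the cause of a move was not tested unless given. With the first component removed, the difference in distance between clones and IVF embryos was -0.00524 and lost its call (exact permutation p = 0.809), that between males and females turned to -0.0774, the median SD of IVF embryos was 0.30, the likeness of SDs (Spearman) 0.41 and the count of probes with unadjusted p below 0.05 was 788. IVF medians of lists were then 0.23 for trophectoderm, 0.31 for p53 targets, 0.34 for stress, 0.37 for immediate early genes, 0.21 for glycolysis, 0.14 for ribosomal proteins and 0.20 for the proteasome. With root mean squares the difference between males and females was -6.68e-05.

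With a limit of 10 the clone median was 0.27, the likeness 0.26, trophectoderm in IVF 0.33, stress in clones 0.26 and histones in clones 0.44. With a limit of 7 the likeness was 0.41, oocyte transcripts were 0.51 in clones and 0.57 in IVF embryos, and imprinted genes in IVF 0.41. With probes well above background on all arrays, which adds dimmer probes, the medians were 0.37 in clones and 0.47 in IVF embryos and the likeness 0.51. Epiblast in clones was then 0.57, primitive endoderm 0.79 and 0.58, oocyte transcripts 0.70 and 0.73, glycolysis in clones 0.46 and imprinted genes in IVF 0.41, and 1 probe was called. With outlier spots kept, trophectoderm in IVF was 0.36.

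With the 75th percentile the difference between clones and IVF embryos, -0.0750, lost its call (exact permutation, adjusted p = 0.0530), oocyte transcripts in IVF were 0.32, heat shock in clones 0.21, ribosomal proteins 0.16 and 0.27, and oxidative phosphorylation in clones 0.20. With normexp they were 0.40, 0.22, 0.155 (clones) and 0.21, with glycolysis in clones at 0.41. With the authors' table they were 0.31, 0.23, 0.17 and 0.30, and 0.20, with reference genes in IVF at 0.34. Absolute deviations called 135 probes and the F test 417, both with the limits given above.

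In clones, arrays of the same replicate number correlated between -0.06 and 0.20, and those of different number between -0.20 and 0.19. In IVF embryos, arrays of the same number correlated between 0.08 and 0.23, and those of different number between -0.22 and 0.09. Whether the number pairs the IVF embryos was not tested. With the number as a block, IVF embryos had 0.34, the likeness was 0.21 and 15.9% of the most variable probes were shared. Epiblast in clones was 0.32, trophectoderm in IVF 0.35, oocyte transcripts in IVF 0.12, stress in IVF 0.33, imprinted genes in IVF 0.28, the proteasome in clones 0.15 and histones in IVF 0.24. The block makes same-numbered residuals mirror images, so that the test counts values repeatedly, with 2271 calls and 3905 unadjusted. It gives no distance within clones or within IVF embryos.

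Leaving out 1 array at a time, the likeness ran from 0.30 to 0.36, the difference in distance between males and females from -0.0120 to 0.123, and the unadjusted count from 1112 to 2124. In IVF embryos trophectoderm ran from 0.30 to 0.51, imprinted genes from 0.31 to 0.41, p53 targets from 0.33 to 0.45, DNA and histone methylation from 0.35 to 0.48, reference genes from 0.23 to 0.31 and histones from 0.44 to 0.74, and in clones interferon genes from 0.39 to 0.58. The difference between clones and IVF embryos ran from -0.107 to -0.0527, with exact permutation p-values adjusted over the 3 tests from 0.00466 to 0.0699, and lost its call without injection clone 3 or female IVF embryo 1.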
